A study of Mus musculus with 6 samples.

Results

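The chemokines, chemokine receptors and atypical chemokine receptors of the mouse were read on a whole genome array in spleens of young mice exposed to lead before and after birth. They were chosen by gene symbol (Ccl, Cxcl, Xcl and Cx3cl for ligands, Ccr, Cxcr, Xcr and Cx3cr for receptors, Ackr for atypical receptors). There were 57 such genes of 17848 genes with a probe of 1 symbol. They had 61 probes, 38 for 35 ligands, 19 for 18 receptors and 4 for 4 atypical receptors. Spleens came from female BALB/c mice aged 21 days, 3 exposed to 0.1 mM Pb (lead) from gestation day 8 and 3 controls, called here Pb and control spleens 1 to 3 by their replicate numbers. The labels give neither the route of exposure nor the litters, and no transgene or other treatment. Total RNA of each animal was read on 1 CodeLink whole genome array in 1 colour (Cy5). A p-value rests on the spread between these animals, which with 1 array each also holds the spread between arrays. If animals of a group shared a litter, which the labels do not say, that spread may be too small.

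Chemokines are small secreted proteins that draw cells along a gradient, and their receptors are G protein-coupled receptors on the cells that follow it. The spleen depends on them for its layout: Cxcl13 and its receptor Cxcr5 gather B cells into follicles, Ccl19 and the Ccl21 proteins bring T cells and dendritic cells to the T zone through Ccr7, and Cxcl12 holds plasma cells and blood progenitors through Cxcr4. Other members, such as Ccl2 or Cxcl2, are made on demand and bring in monocytes or neutrophils, while atypical receptors bind chemokines without G protein signalling and remove, move or hold them.

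Levels are given as log2 intensity, on which the median of an array is near 0, after correction for position on the array. The values of Pb spleen 3 bore almost no relation to those of the controls (r of 0.0453 to 0.0484 with controls across probes), so the comparison is between Pb spleens 1 and 2 and the 3 control spleens. Pb spleen 2 as deposited drifted along the array, by medians of 20 array rows from -2.51 to 2.37 against the control mean, and its r with controls was 0.656 to 0.666 before correction and 0.917 to 0.918 after it. At these extremes the correction moved Pb spleen 2 by more than any member difference that was tested, and the standard errors do not include the error of that correction. Probes with a mean level in the lowest 30% of the array were not tested, which removed 14 of the 61 member probes. Markers of the labelled tissue were present: the spleen regulator Tlx1 was at 3.18 and 2.83 in Pb, against 3.04 ± 0.03 in controls, and the macrophage regulator Spic at 2.77 and 2.79 in Pb, against 2.55 ± 0.39 in controls (SD, n = 3). Adipocyte markers summed to a linear level of 15.5 and 28.3 in Pb spleens 1 and 2, against 11.2 to 17.5 in controls, and 0 of 3 passed the adjusted threshold.

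**Figure D1:**
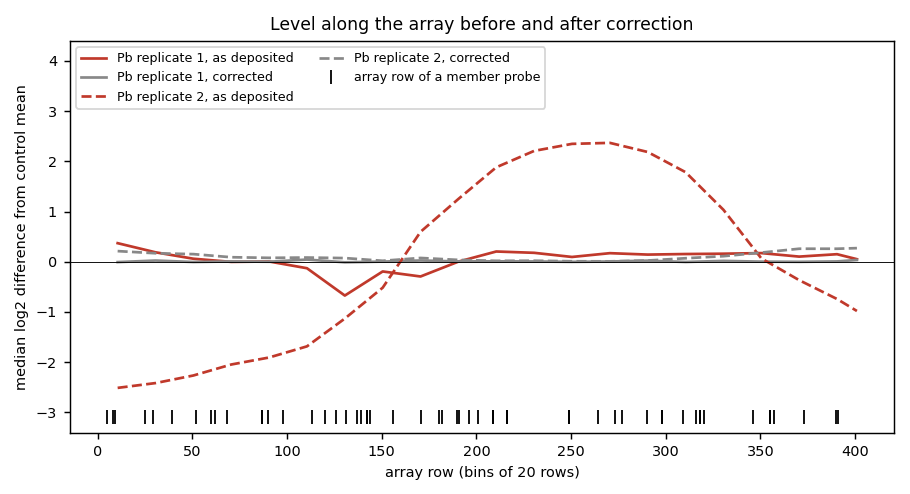
Median log2 difference of Pb spleens 1 and 2 from the control mean in bins of 20 array rows, as deposited (red) and after correction (grey), with ticks at the array rows of the 61 member probes. As deposited, Pb spleen 2 (dashed) runs from -2.51 at the start to 2.37 past the middle, while both corrected lines stay between -0.01 and 0.27.

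No chemokine or receptor differed past the adjusted threshold of 0.05. Of 47 member probes tested, 0 were higher and 0 lower in Pb, and the smallest adjusted p of a member was 0.622 (limma), where 0.0613% of all 24464 tested probes passed. At an unadjusted p under 0.05 (limma) there were 2 higher members, the ligands Ccl21b and Cxcl17, and 2 lower ones, the ligands Cxcl15 and Ccl6, where 3.88% of all tested probes were higher and 3.3% lower by the same rule. These 4 are 8.51% of the tested members, against 7.18% of all tested probes. The share is close to the background and is no result about the family. With scaling of the arrays to their 75th percentile, all tested probes at an unadjusted p under 0.05 (limma) were 741 higher and 1021 lower, in place of 949 and 808. The members stayed at 2 higher and 2 lower. With a position surface that did not depend on level, all probes split into 421 higher and 1982 lower, and members into 0 and 3, as the median of all probes moved to -0.21. The count of members at an unadjusted p under 0.05 (limma) was 8 of 47 (17%, against 7.89% of all probes) without Pb spleen 2 and 11 of 48 (22.9%, against 30.7% of all probes) without Pb spleen 1. In a whole spleen, fewer cells of a type and less RNA per cell cannot be told apart.

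Differences were spread on both sides of 0, with 23 tested members above and 24 below. The median difference in log2 level, Pb minus control, was 0.06 for the 27 tested ligand probes and -0.01 for the 17 tested receptor probes, against 0.03 for all tested probes. Both Pb spleens lay on one side of all 3 controls for 11 of 47 tested members, 5 above and 6 below. That is 23.4%, against 26.7% of all tested probes, of which 14% lay above and 12.7% below. The 95% interval of the difference lay within 1 log2 unit of 0, a 2-fold change either way, for 37 of 47 members, and within a 1.5-fold change for 12. The intervals of the other 10 members reached a 2-fold change in at least 1 direction.

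**Figure D2:**
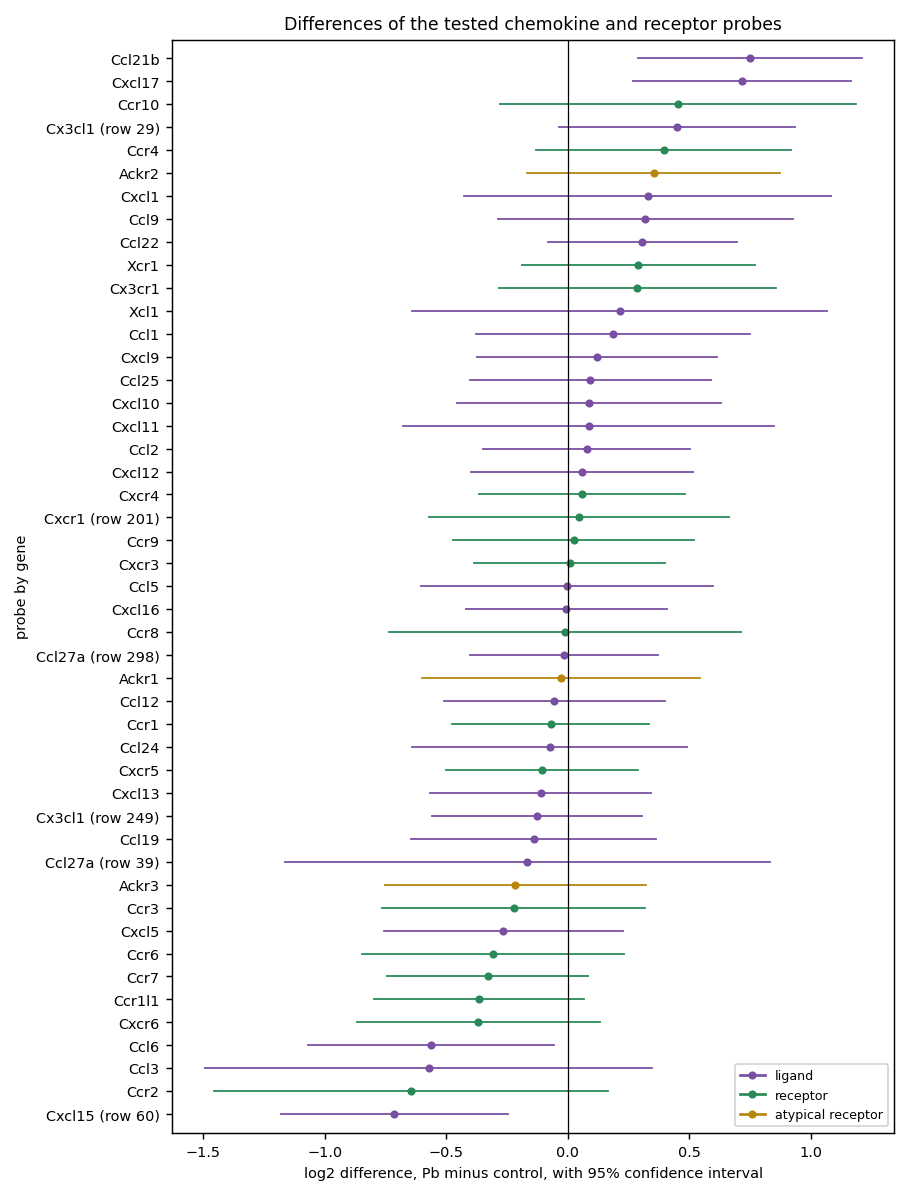
Log2 difference of Pb from control spleens (points) with 95% confidence intervals (lines) for the 47 tested member probes, sorted by size and coloured by class, with the array row given where a gene has 2 probes. The intervals of Ccl21b, Cxcl17, Ccl6 and the Cxcl15 probe of array row 60 do not reach 0, and none of these members passed the adjusted threshold.

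**Figure D3:**
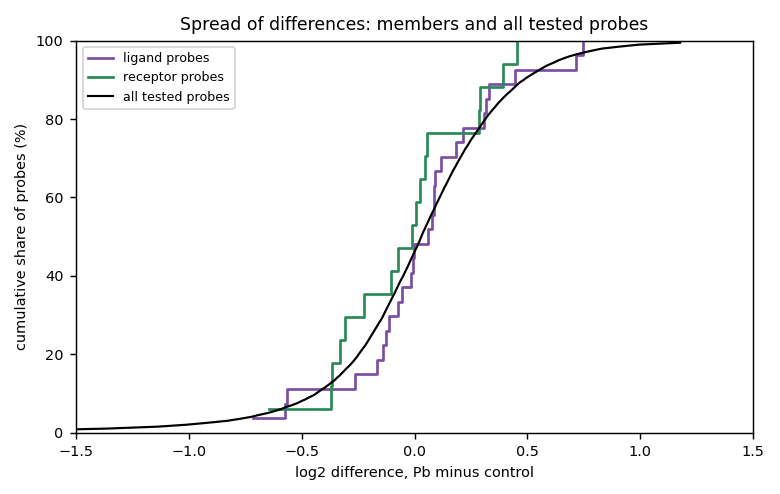
Cumulative share of probes, in percent, by log2 difference of Pb from control spleens for 27 ligand probes, 17 receptor probes and all 24464 tested probes (black, with its outermost ends not drawn). The member curves cross 0 near the black one, with medians of 0.06 for ligands, -0.01 for receptors and 0.03 for all probes.

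The largest tested difference was that of Ccl21b, one of several nearly identical mouse genes for the T zone ligand of Ccr7. Its probe was at 1.95 and 1.71 in Pb spleens 1 and 2, against 1.03, 1.27 and 0.96 in control spleens 1, 2 and 3. Both Pb spleens lay above all controls, and they exceeded the control mean by 0.75 log2 units (SE 0.19, limma adjusted p = 0.622), or 1.68-fold. The probe that the annotation gives to Ccl21a, Ccl21b and Ccl21c together, which is not counted as a member, was at 6.13 and 5.64 in Pb spleens 1 and 2, against 5.80, 5.94 and 5.84 in control spleens 1, 2 and 3. Its groups overlapped, and its difference was 0.03 (95% interval -0.48 to 0.53). Whether the 2 probes differ was not tested, and either probe may bind transcripts of more than 1 copy.

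Ccl19, the other T zone ligand of Ccr7, was at 6.73 and 6.52 in Pb spleens 1 and 2, against 6.50, 6.91 and 6.89 in control spleens 1, 2 and 3. Its groups overlapped, and its difference was -0.14 (95% interval -0.64 to 0.36). As deposited, both Pb spleens were below the control mean for this probe, with deviations of -1.46 and -2.05. It lies in array rows 121 to 140, where all probes of Pb spleens 1 and 2 had medians of -0.67 and -1.13 before correction. The follicle ligand Cxcl13 was at 5.84 and 5.60 in Pb spleens 1 and 2, against 5.71, 5.99 and 5.79 in control spleens 1, 2 and 3, with overlapping groups and a difference of -0.11 (95% interval -0.57 to 0.34). Cxcl12, the stromal ligand of Cxcr4, was at 5.42 and 5.38 in Pb spleens 1 and 2, against 5.12, 5.40 and 5.50 in control spleens 1, 2 and 3, and its difference was 0.06 (95% interval -0.40 to 0.52). These values rest on the correction. As deposited, Pb spleens 1 and 2 stood -0.52 and -3.15 from the control mean for Cxcl13, and -0.03 and -1.54 for Cxcl12. Without correction the difference was -1.75 for Ccl19, -1.83 for Cxcl13 and -0.79 for Cxcl12. With a coarser surface (a row basis of 15) it was -0.38 for Ccl19.

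Cxcl17, a chemokine of mucosal epithelia, was at 4.25 and 4.47 in Pb spleens 1 and 2, against 3.77, 3.48 and 3.68 in control spleens 1, 2 and 3. Neither Pb spleen overlapped the controls, which were lower, with a difference of 0.72 (SE 0.18, limma adjusted p = 0.622), or 1.64-fold. The direction in Pb spleen 2 rests on the position correction: as deposited, Pb spleens 1 and 2 stood 0.79 and -2.85 from the control mean, and the difference was -1.03. Markers of pancreatic exocrine cells were higher in the same 2 spleens. Of the 9 tested probes of a list of exocrine markers 7 rose past the adjusted threshold (limma). That count has a limit, since the filter used the mean of all 5 arrays. Markers dim in controls, such as Amy2a5 (control mean -3.86), were tested only because of their high Pb values. The summed linear level of the list over 10 probes was 121 and 157 in Pb spleens 1 and 2, against 3.02 to 3.67 in controls. The level of Cxcl17 in controls was 3.64 ± 0.15 (SD, n = 3). The part of exocrine cells in the values of Cxcl17 was not tested.

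Cxcl15, known in the mouse as lungkine for its expression in lung epithelium, had 2 probes. The one in array row 60 was at 0.73 and 0.35 in Pb spleens 1 and 2, against 1.31, 1.16 and 1.30 in control spleens 1, 2 and 3. All controls lay above both Pb spleens at this probe, with a difference of -0.71 (SE 0.19, limma adjusted p = 0.622). The one in array row 120 lay under the filter, at -1.48 and -1.67 in Pb spleens 1 and 2, against -2.29, -1.11 and -1.59 in control spleens 1, 2 and 3, with overlapping groups and a difference of 0.09. The 2 differences have opposite signs, and the values of the dimmer probe spread over 1.17 log2 units in controls.

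Ccl6, made by macrophages and other myeloid cells of rodents, was at 3.98 and 3.72 in Pb spleens 1 and 2, against 4.53, 4.56 and 4.16 in control spleens 1, 2 and 3. Both Pb spleens were below all controls, with a difference of -0.56 (SE 0.21, limma adjusted p = 0.622), or 0.68-fold. Without position correction it was -0.02, since Pb spleen 2 as deposited stood 0.80 above the control mean and Pb spleen 1 -0.83 from it. Markers of neutrophils, cells that also carry chemokine receptors, had a summed linear level of 631 and 335 in Pb spleens 1 and 2, against 323 to 436 in controls, with all 7 tested probes above 0 (median 0.34) and 0 past the adjusted threshold (limma). Markers of red pulp macrophages summed to 73.5 and 79.9 in Pb spleens 1 and 2, against 58.3 to 83.1 in controls. The part of either cell type in the values of Ccl6 was not tested.

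Of the CC ligands, 14 of 21 probes were tested, 6 with a difference above 0 and 8 below, Ccl21b and Ccl6 included. Ccl22, a ligand of Ccr4 made by dendritic cells, was at 2.12 and 2.22 in Pb spleens 1 and 2, against 1.87, 1.84 and 1.88 in control spleens 1, 2 and 3. The controls agreed closely (SD 0.02) and both Pb spleens were above them, with a difference of 0.31 (95% interval -0.08 to 0.69) that did not pass (limma adjusted p = 0.622). As deposited, Pb spleen 1 was 0.09 above the control mean for Ccl22. Ccl5, a chemokine made by cytotoxic lymphocytes, was at 4.10 and 3.48 in Pb spleens 1 and 2, against 3.67, 4.0 and 3.71 in control spleens 1, 2 and 3. Its 2 Pb spleens lay on either side of the control mean, with a difference of -0.0031 (95% interval -0.60 to 0.60). Without correction the difference of Ccl5 was -1.94, with both Pb spleens below all controls.

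Ccl3, a ligand that activated macrophages and lymphocytes release, was at 0.87 and -0.31 in Pb spleens 1 and 2, against 0.96, 0.55 and 1.06 in control spleens 1, 2 and 3. Pb spleen 1 lay among the controls and Pb spleen 2 below them, and the difference of -0.57 (95% interval -1.49 to 0.35) rests on Pb spleen 2. Without Pb spleen 2 it was 0.02, and without Pb spleen 1 it was -1.20. Without correction the difference of Ccl3 was -1.65, with both Pb spleens below all controls. Ccl4, a close relative of Ccl3, was under the filter, at -4.73 and -5.31 in Pb spleens 1 and 2, against -3.11, -2.61 and -4.65 in control spleens 1, 2 and 3. It lay lower in both Pb spleens than in all controls, with a difference of -1.56, at levels where controls spread over 2.04 units. Without correction the groups of Ccl4 overlapped, and its deposited intensity in control spleen 3 was not above 0.

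Ccl2, which brings monocytes out of bone marrow through Ccr2, was at 1.89 and 1.88 in Pb, against 1.81 ± 0.14 in controls (SD, n = 3), and its difference was 0.08 (95% interval -0.35 to 0.50). Ccl24, a ligand of the eosinophil receptor Ccr3, had -0.07 (95% interval -0.64 to 0.49), and Ccl25, the ligand of Ccr9, had 0.09 (95% interval -0.40 to 0.59). Ccl1, the ligand of Ccr8, had 0.18 (95% interval -0.38 to 0.75), Ccl12 had -0.06 (95% interval -0.51 to 0.40) and Ccl9 had 0.32 (95% interval -0.29 to 0.92). For all of these the Pb and control values overlapped after correction. Without it both Pb spleens were above all controls for Ccl1, Ccl12 and Ccl25, with differences of 1.67, 1.37 and 1.32.

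Ccl27a, a ligand of Ccr10 best known from skin, had 2 probes. That in array row 298 was at 0.50 and 0.45 in Pb spleens 1 and 2, against 0.50, 0.53 and 0.43 in control spleens 1, 2 and 3, close together on all 5 arrays. That in array row 39 was at 0.84 and -0.58 in Pb spleens 1 and 2, against 0.39, 0.24 and 0.26 in control spleens 1, 2 and 3, with Pb spleen 1 above and Pb spleen 2 below all controls. Its difference of -0.17 (95% interval -1.17 to 0.83) averages those 2 values, and without Pb spleen 1 it was -0.95 with Pb spleen 2 as the lone Pb array.

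**Figure D4:**
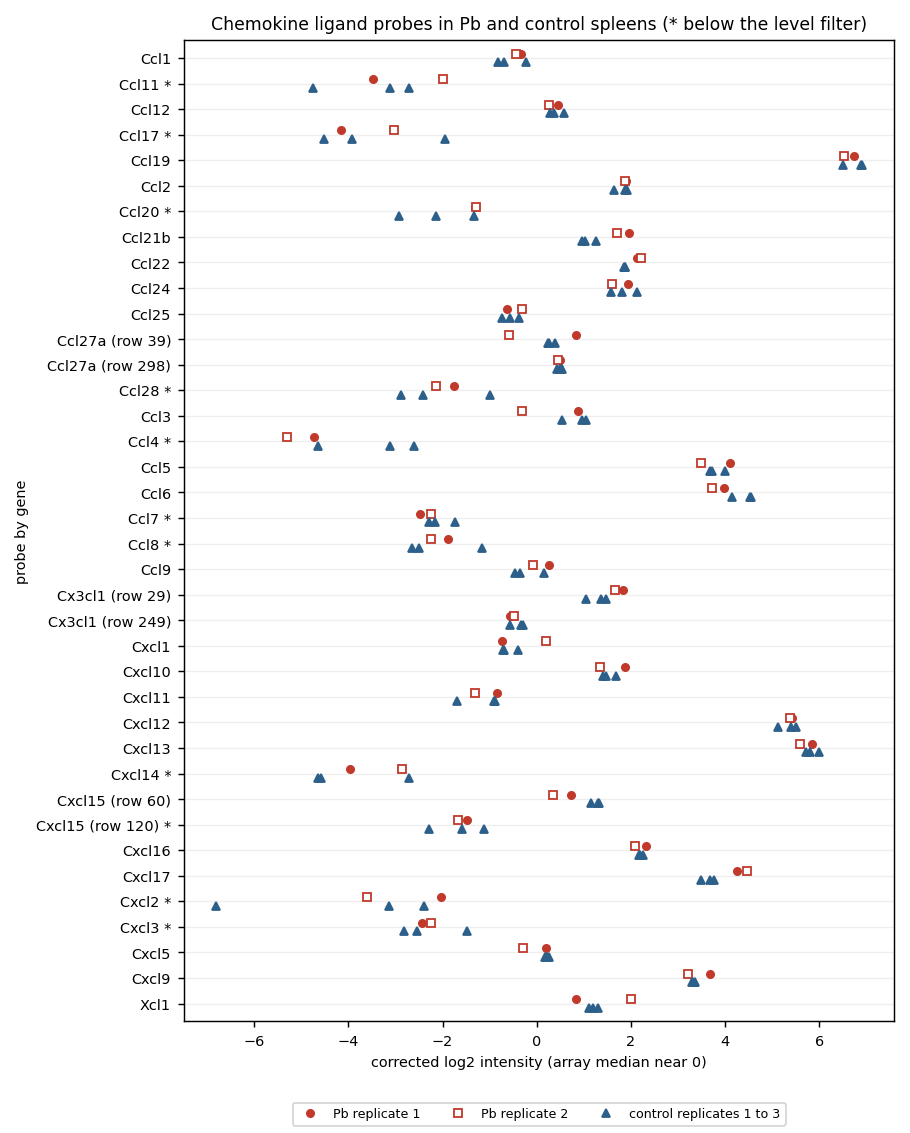
Corrected log2 intensity of the 38 ligand probes on each array, with Pb spleens 1 (filled circle) and 2 (open square) drawn above the 3 control spleens (triangles) of the same probe, and an asterisk for probes under the level filter. Ccl21b and Cxcl17 have both Pb points above the controls and Cxcl15 (row 60) and Ccl6 below, and the lowest value is that of Cxcl2 in control spleen 1, at -6.81.

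Of 14 CXC ligand probes 10 were tested, 6 above 0 and 4 below. The interferon-induced ligands of Cxcr3 did not pass the test. Cxcl9, the first of them, was at 3.68 and 3.21 in Pb spleens 1 and 2, against 3.29, 3.33 and 3.35 in control spleens 1, 2 and 3, with Pb spleen 1 above and Pb spleen 2 below all controls and a difference of 0.12 (95% interval -0.37 to 0.61). As deposited, both Pb spleens were below all controls for Cxcl9, at -0.29 and -0.26 from the control mean, so its split and sign rest on the correction. Cxcl10 had 0.09 (95% interval -0.45 to 0.63) and Cxcl11 0.08 (95% interval -0.68 to 0.85), both with overlapping groups. The sign of the Cxcl10 difference depends on the position surface, as it was -0.30 with a row basis of 15 in place of 40 and -0.73 without correction. Cxcl16, the membrane-bound ligand of Cxcr6, was at 2.32 and 2.08 in Pb, against 2.21 ± 0.04 in controls (SD, n = 3), with a difference of -0.01 (95% interval -0.42 to 0.41). The neutrophil attractant Cxcl1 was at -0.74 and 0.20 in Pb spleens 1 and 2, against -0.69, -0.40 and -0.71 in control spleens 1, 2 and 3. Only Pb spleen 2 stood above the controls for Cxcl1, and the difference of 0.33 became -0.15 without it. As deposited, both Pb spleens were below all controls for Cxcl1, at -0.74 and -0.75 from the control mean. The same held for Cxcl16, with a difference of -0.92 without correction. Cxcl5, another neutrophil attractant, had -0.27 (95% interval -0.76 to 0.23).

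Xcl1, released by natural killer and CD8 T cells, was at 0.83 and 2.00 in Pb spleens 1 and 2, against 1.19, 1.30 and 1.12 in control spleens 1, 2 and 3. After correction its 2 Pb spleens lay on opposite sides of the controls, and the difference was 0.21 (95% interval -0.64 to 1.07). As deposited, both were below all controls for Xcl1, at -1.04 and -1.10 from the control mean, so the split rests on the correction. Cx3cl1, a membrane-tethered ligand of endothelium and other stroma, had 2 probes. That in array row 29 was at 1.82 and 1.67 in Pb spleens 1 and 2, against 1.37, 1.05 and 1.47 in control spleens 1, 2 and 3, and both Pb spleens were above all controls, with a difference of 0.45 (95% interval -0.04 to 0.93). That in array row 249 was at -0.57 and -0.47 in Pb spleens 1 and 2, against -0.33, -0.29 and -0.57 in control spleens 1, 2 and 3, with overlapping groups and a difference of -0.13 (95% interval -0.56 to 0.30). As deposited, Pb spleen 2 stood -3.04 from the control mean at the first of these probes, so its place above the controls rests on the correction.

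The receptor that pairs with Ccl19 and Ccl21, Ccr7, was at 2.03 and 1.83 in Pb spleens 1 and 2, against 2.21, 2.34 and 2.24 in control spleens 1, 2 and 3. Both Pb spleens were below all controls, whose SD was 0.07, with a difference of -0.33 (95% interval -0.74 to 0.08) that did not pass (limma adjusted p = 0.622). Ccr7 lies in array row 318 with Ccr1l1 and Cxcl9. The 16 other probes within 1 row and 3 columns of it on the array, members left out, had a median difference of -0.20. The direction of Ccr7 held in all 17 alternatives on at most 5 arrays (-0.75 to -0.23), of which 0 gave an unadjusted p under 0.05 (limma). These alternatives reuse the same arrays. None of the T cell markers passed the adjusted threshold: of 6 tested probes 4 were above 0, and their summed linear level was 97 and 78.9 in Pb spleens 1 and 2, against 78 to 98.7 in controls. Of these markers Cd3e was highest, with 0.74, both Pb spleens above all controls and an unadjusted p of 0.0054 (limma). Cd8a was lowest, with -0.26. Cxcr5, the follicle receptor of B cells, was at 0.63 and 0.65 in Pb spleens 1 and 2, against 0.79, 0.66 and 0.79 in control spleens 1, 2 and 3, with both Pb spleens just below all controls and a difference of -0.11 (95% interval -0.50 to 0.29). The B cell markers summed to 141 and 140 in Pb spleens 1 and 2, against 128 to 141 in controls.

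Cxcr4, the receptor of Cxcl12, was at 4.76 and 4.80 in Pb spleens 1 and 2, against 4.88, 4.61 and 4.67 in control spleens 1, 2 and 3. Its groups overlapped and its difference was 0.06 (95% interval -0.37 to 0.48). Cxcr3, the receptor of effector T and natural killer cells, was at 3.58 and 3.71 in Pb spleens 1 and 2, against 3.62, 3.67 and 3.62 in control spleens 1, 2 and 3, with a difference of 0.01 (95% interval -0.39 to 0.40). Both rest on the correction, since the differences as deposited were -1.83 for Cxcr4, with Pb spleen 2 at -3.68 from the control mean, and -0.99 for Cxcr3, with both Pb spleens below all controls. Cxcr6, of activated T and natural killer T cells, was at -0.40 and -0.37 in Pb spleens 1 and 2, against 0.15, -0.30 and 0.11 in control spleens 1, 2 and 3. Both lay below all controls, with a difference of -0.37 (95% interval -0.87 to 0.13), but Pb spleen 1 as deposited stood 0.40 above the control mean. The 18 other probes within 1 row and 3 columns of Cxcr6 on the array had a median difference of -0.22. Natural killer cell markers summed to 16.9 and 16.9 in Pb spleens 1 and 2, against 11.1 to 20 in controls, a sum led by Gzma, the brightest of them. Of 5 tested probes 2 were above 0, Gzma (0.37) and Gzmb (0.02). The 3 below 0 were Klrb1c (-0.10), Prf1 (-0.48) and Ncr1 (-0.67), and none of the 5 passed the adjusted threshold (limma).

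Among the CC receptors, 3 of 10 tested probes had a difference above 0 and 7 below, with a median of -0.15 against 0.03 over all tested probes. The receptor of inflammatory monocytes, Ccr2, had the largest difference among them and was at 1.59 and 1.04 in Pb spleens 1 and 2, against 2.50, 1.58 and 1.80 in control spleens 1, 2 and 3. Pb spleen 1 lay at the low end of the control range, Pb spleen 2 below it, and control spleen 1 stood above the rest, and the difference was -0.65 (95% interval -1.46 to 0.16) (limma adjusted p = 0.622). Ccr6, the receptor of Ccl20 on B cells and some T cells, was at 2.41 and 1.92 in Pb spleens 1 and 2, against 2.66, 2.43 and 2.34 in control spleens 1, 2 and 3. Only Pb spleen 2 stood apart, and the difference of -0.31 was -0.06 without it. Ccr3, of eosinophils, had -0.22 (95% interval -0.77 to 0.32), and Ccr1l1, a mouse relative of Ccr1, had -0.37 (95% interval -0.80 to 0.06) with both Pb spleens below all controls.

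On the higher side, Ccr4, the receptor of Ccl17 and Ccl22 on type 2 helper and regulatory T cells, was at 3.09 and 2.58 in Pb spleens 1 and 2, against 2.53, 2.30 and 2.49 in control spleens 1, 2 and 3. Both Pb spleens were above all controls, Pb spleen 2 by little, and the difference was 0.39 (95% interval -0.13 to 0.92), with a limma adjusted p of 0.622. Its ligand Ccl22 lay above the controls too, but the probes of Ccr4 and Ccl22 lie in the same array row, 209, and Pb spleen 2 exceeded the control mean by a median of 1.88 in rows 201 to 220 before correction. The probes of Ccl25 and Ccr1 in the same row had differences of 0.09 and -0.07 with overlapping groups, and that of Cxcr2, under the filter, had -0.93 with both Pb spleens below all controls. The deposited intensity of Cxcr2 in Pb spleen 1 was not above 0, so its level there comes from a replaced value. Without correction the difference of Cxcr2 was 0.35 and its groups overlapped. Ccr10 had 0.45 (95% interval -0.28 to 1.18), Ccr8 -0.01 (95% interval -0.73 to 0.71) and Ccr9 0.02 (95% interval -0.47 to 0.52). Without correction the differences of Ccr8 and Ccr9 were 1.69 and 1.41, with both Pb spleens above all controls. Xcr1, of cross-presenting dendritic cells, was at 4.14 and 3.72 in Pb spleens 1 and 2, against 3.62, 3.58 and 3.72 in control spleens 1, 2 and 3, and its difference was 0.29 (95% interval -0.19 to 0.77). Cx3cr1, of patrolling monocytes and macrophages, was at 1.12 and 1.18 in Pb spleens 1 and 2, against 0.85, 0.54 and 1.19 in control spleens 1, 2 and 3, with a difference of 0.29 (95% interval -0.29 to 0.86). Both overlapped the controls.

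Atypical receptors gave no separation among the 3 tested. Ackr1, which binds many chemokines on venules and red cells, was at 3.66 and 4.23 in Pb spleens 1 and 2, against 4.12, 3.79 and 4.01 in control spleens 1, 2 and 3, with a difference of -0.03 (95% interval -0.60 to 0.55). Ackr3, which removes Cxcl12, was at 1.72 and 2.25 in Pb spleens 1 and 2, against 2.05, 2.27 and 2.28 in control spleens 1, 2 and 3, and only Pb spleen 1 was below the controls, with a difference of -0.22 (95% interval -0.75 to 0.32). Ackr2, a scavenger of inflammatory CC chemokines, had 0.35 (95% interval -0.17 to 0.87). Ackr4, which takes up Ccl19, Ccl21 and Ccl25, was under the filter, at -2.22 and -0.74 in Pb spleens 1 and 2, against -3.01, -2.27 and -3.07 in control spleens 1, 2 and 3. Both Pb values of Ackr4 were above all controls, and they differed from each other by 1.48.

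**Figure D5:**
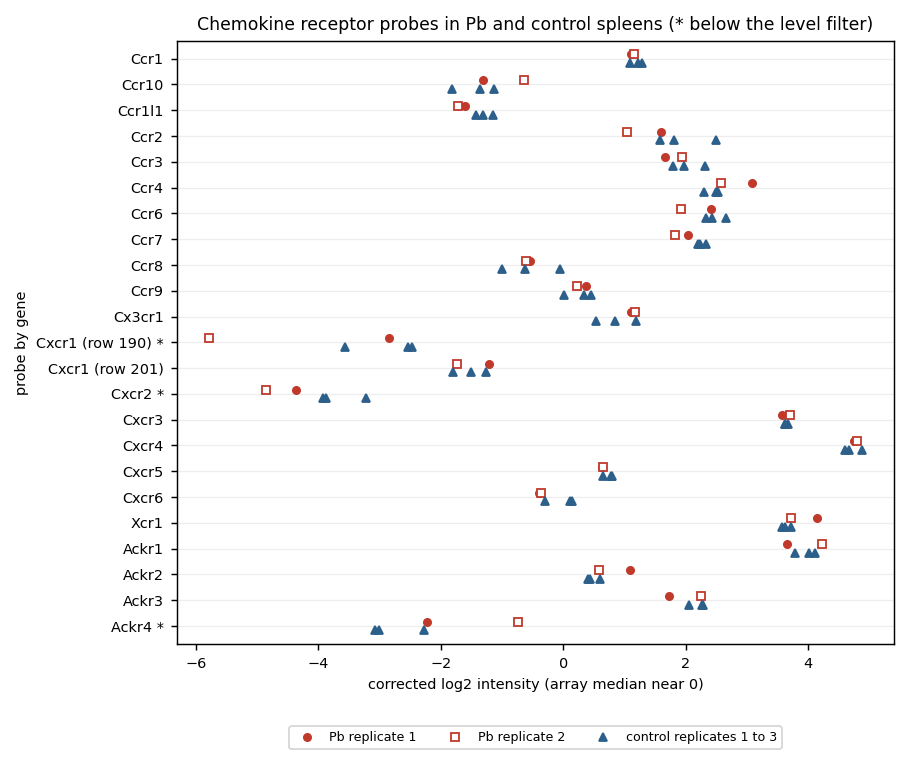
Corrected log2 intensity of the 19 receptor and 4 atypical receptor probes on each array, with Pb spleens 1 (filled circle) and 2 (open square) drawn above the 3 control spleens (triangles), and an asterisk for probes under the level filter. Ccr7, Cxcr6 and Ccr1l1 have both Pb points just below the controls, Ccr4 has both above, and Cxcr3, Cxcr4 and Ccr9 overlap.

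The 14 probes under the filter were 11 of ligands, 2 of receptors and 1 of an atypical receptor. They belong to Ccl4, Ccl7, Ccl8, Ccl11, Ccl17, Ccl20, Ccl28, Cxcl2, Cxcl3, Cxcl14, Cxcl15 (array row 120), Cxcr1 (array row 190), Cxcr2 and Ackr4. Their values ran from -6.81 to -0.74, and their SD between controls from 0.29 to 2.36, with a median of 0.80 against 0.16 in the tested members. No detection calls were at hand, so levels this low have no stated error. Cxcl2, a neutrophil attractant, shows the range: it was at -2.03 and -3.60 in Pb spleens 1 and 2, against -6.81, -2.40 and -3.13 in control spleens 1, 2 and 3. Cxcr2, its receptor, was at -4.36 and -4.86 in Pb spleens 1 and 2, against -3.93, -3.88 and -3.22 in control spleens 1, 2 and 3, and Ccl20, the ligand of Ccr6, at -1.31 and -1.28 in Pb spleens 1 and 2, against -1.32, -2.92 and -2.14 in control spleens 1, 2 and 3. The Cxcr2 value of Pb spleen 1 rests on a replaced intensity, as the deposited one was not above 0. Over all 61 member probes, tested or not, both Pb spleens stood on one side of all controls for 15, which is 24.6% against 24.9% of all 34949 probes.

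The other inflammatory ligands under the filter, Ccl7, Ccl8, Ccl11 and Ccl17, had overlapping groups. Ccl7, a relative of Ccl2 that also attracts monocytes, was at -2.47 and -2.24 in Pb spleens 1 and 2, against -2.16, -1.73 and -2.29 in control spleens 1, 2 and 3. The eosinophil attractant Ccl11 had -3.49 and -1.99 in Pb, against -3.52 ± 1.09 in controls, and Ccl17, the other ligand of Ccr4, had -4.15 and -3.02 in Pb, against -3.47 ± 1.35 in controls (SD, n = 3). Cxcr1 had a second, tested probe in array row 201, at -1.22 and -1.73 in Pb spleens 1 and 2, against -1.25, -1.80 and -1.50 in control spleens 1, 2 and 3, with overlapping groups and a difference of 0.05 (95% interval -0.57 to 0.66). Its dim probe in array row 190 was at -5.79 in Pb spleen 2 and between -3.56 and -2.47 on the other 4 arrays.

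Many members lie side by side in the mouse genome, and the differences of such neighbours can be set side by side. Ccl1, Ccl2, Ccl7, Ccl8, Ccl11 and Ccl12 are neighbours, and their 3 tested probes ran from -0.06 to 0.18. The nearby group of Ccl3, Ccl4, Ccl5, Ccl6 and Ccl9 had 3 of 4 tested probes below 0, from -0.57 for Ccl3 to 0.32 for Ccl9. The receptor genes Ccr1, Ccr1l1, Ccr2, Ccr3, Ccr9, Cxcr6 and Xcr1 also lie together, with 5 of 7 tested probes below 0 and a range of -0.65 to 0.29. Cxcl9, Cxcl10 and Cxcl11, also neighbours, had 3 of 3 above 0, all between 0.08 and 0.12. Without correction they had -0.27, -0.73 and 0.30. The other groups were mixed: Ccl19, Ccl21b and Ccl27a had 1 of 4 above 0, Cxcl1, Cxcl2, Cxcl3, Cxcl5 and Cxcl15 had 1 of 3, and Ccl17, Ccl22 and Cx3cl1 had 2 of 3. Of all 24464 tested probes, 13166 were above 0 and 11298 below. On the array, 4 members share row 355, where Ccr2 had -0.65, Ccl3 -0.57, Ccr3 -0.22 and Ccl9 0.32. These counts describe neighbours and were not tested.

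The spread within groups can be set against that of other probes. The SD between the 3 controls had a median of 0.16 over the tested members, from 0.02 for Ccl22 to 0.48 for Ccr2, against a median of 0.16 over all tested probes. The gap between the 2 Pb spleens had a median of 0.26 in tested members and 0.37 in all tested probes. Pb spleen 1 was the higher of the pair for 31 of 47 tested members and for 11214 of 24464 tested probes.

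Genes that act with chemokines were read from a list of 59 genes with 80 probes, of which 70 were tested. In limma 0 were higher and 0 lower past the adjusted threshold, and 2 higher and 3 lower at an unadjusted p under 0.05, 7.14% against 7.18% of all tested probes. Their median difference was 0.03. The higher ones were 1 probe of Rap1a (0.72) and 1 of Rap1b (0.57), small GTPases that turn a chemokine signal into integrin adhesion. The other probes of Rap1a had 0.33 and 0.004, and that of Rap1b had 0.42. The lower ones were 1 probe each of Elmo1 (-0.72), a partner of the migration factor Dock2, of Itga4 (-0.62), an integrin chain, and of Tnf (-1.16), a cytokine that induces many chemokines. The other probes of Elmo1 and Itga4 had 0.38 and -0.21.

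Tnf and the Elmo1 probe with a difference of -0.72 lie in array rows 121 to 140, a band that was dim in both Pb spleens before correction. As deposited, Pb spleens 1 and 2 stood -1.69 and -2.11 from the control mean for Tnf, and -1.71 and -1.80 for this Elmo1 probe. All probes of the band had medians of -0.67 and -1.13. Of the 4 members in it, 0 had an unadjusted p under 0.05 (limma). The part of position in these values was not tested. Gnai2, the G protein chain through which chemokine receptors signal, was at 5.56 and 5.0 in Pb spleens 1 and 2, against 5.92, 5.71 and 5.82 in control spleens 1, 2 and 3. Its Pb values were both below all controls, with a difference of -0.54 (95% interval -1.08 to 0.01). Ltb, a lymphotoxin chain that induces Cxcl13 and Ccl21 in stroma, had 0.16 (95% interval -0.35 to 0.67), and Dpp4, a protease that trims chemokines, had 0.15 (95% interval -0.25 to 0.54). The platelet chemokines Ppbp and Pf4, whose symbols fall outside the family pattern, had -0.14 (95% interval -0.72 to 0.43) and 0.09 (95% interval -0.43 to 0.60). Of these genes none passed the adjusted threshold, the smallest adjusted p being 0.372 for Tnf (limma).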

How the data were processed

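Spleen RNA of 6 mice was hybridised to CodeLink mouse whole genome arrays, 1 array per animal in 1 colour, per the labels. Each deposited file gives linear intensity values, with array medians of 0.972 to 0.987. How the authors scanned the arrays, subtracted background or normalised is not stated in the labels. The small number of arrays sets the precision.

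Intensities not above 0 were replaced by the 1st percentile of those above 0 on the same array, before log2 was taken. Pb replicate 3 and array rows 402 and above were left out, which left 34949 of 35587 probes and 5 arrays (3 control, 2 Pb). A smooth surface was fitted to how each array deviated from a mean array (3 controls and Pb replicate 1) and subtracted, and this was done 2 times (mgcv 1.9.3, bam, with 40, 6 and 8 basis functions for array row, level and array column). Controls are part of that mean, so the higher r of Pb replicate 2 afterwards is partly built in. Probes with a mean at or above the 30th percentile (24464) were then tested two-sided in R 4.3.3 by lmFit and eBayes of limma 3.58.1 (Benjamini-Hochberg over all tested probes). The code was tested on simulated data. Gene names come from the platform annotation (21615 probes with 1 symbol, 681 with several, 13291 not listed). The entrez identifiers of all 61 member probes were found in the RefSeq table of GRCm38.p6, with 0 symbols changed. That table gave names and gene neighbours (starts at most 1000000 bases apart) but no coordinates, since the sources name no build.

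The members, the lists and this fit were chosen with earlier results of these data known. The members named are those past a threshold, up to 10 more whose groups do not overlap, members with a known role in the spleen, and those with 2 probes, while single values of a few others stand in the text. Same-numbered animals are not said to be paired.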

Additional observations from a re-analysis of the deposited data

How the results depend on the processing

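The 18 alternatives changed the position surface, the filter, the treatment of values near 0, the scaling, the variance model or the arrays used. The 0 member probes past the adjusted threshold stayed 0 in all but 1: without Pb replicate 1, which leaves 1 Pb array, there were 3 (Ccl27a in array row 39, Ccl3 and Cxcl15 in array row 60, all lower), where 12% of all probes passed (limma). With 1 array left out the members past the adjusted threshold ran from 0 to 3, those at an unadjusted p under 0.05 from 3 to 11, and all probes past the adjusted threshold from 2 to 2926. The spread of a single Pb array is taken to be that of the controls. With 1 array left out, the median log2 difference of ligand probes ran from -0.11 to 0.083 and the median log2 difference of receptor probes from -0.11 to -0.0077, and with a row basis of 15 the receptor median was 0.024. These medians were -0.54 and -0.51 without position correction, -0.20 and -0.25 when the surface did not depend on level, and -0.40 and -0.51 in all 6 arrays as deposited, where the median of all probes was -0.14, -0.21 and -0.40. Of all probes, the 15 past the adjusted threshold became 0 without position correction, 0 without the filter, 0 in all 6 arrays and 7 with array weights. With the replicate block they became 7, and members at an unadjusted p under 0.05 were 1 higher and 3 lower (limma), Ccl21b no longer being among the higher ones. Deviations of same-numbered animals had r = 0.03 and 0.00016. With 2 Pb arrays the deviations of 1 mirror those of the other, so this check could hardly show pairing and leaves it undecided. Among the 17 alternatives on at most 5 arrays the difference ran from 0.36 to 0.99 for Ccl21b (unadjusted p under 0.05 in 14), -1.03 to 0.84 for Cxcl17 (15), -2.53 to -0.53 for Cxcl15 (17) and -0.75 to -0.02 for Ccl6 (11). No named probe had a call in the main fit, so there was no call to lose or reverse. Of 900 comparisons of 50 named probes, 104 changed sign uncalled. The cause was not tested. Dim signal limits the members under the filter.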
